A study of Mus musculus with 38 samples.

Results

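The 10 goblet cell genes described here were taken by symbol from the count files, and all 10 were found among the 46078 annotated genes: Muc2, Fcgbp, Zg16, Tff3, Agr2, Spink4, Retnlb, Ang4, Atoh1 and Spdef. Their RNA was measured in 38 libraries of isolated intestinal epithelial cells from C57BL/6 mice, each named for 1 numbered animal. Mice that had lost hexokinase 2 in the intestinal epithelium (Hk2∆IEC, here KO) carried floxed Hk2 alleles and a Cre recombinase driven by the Villin promoter, and their littermates with floxed Hk2 alleles and no such deletion (Hk2fl/fl) are called WT. Co-housed males of 10 to 12 weeks drank water with 1.5% dextran sodium sulfate (DSS), a polymer that injures the colonic epithelium and causes colitis. There were 4 WT and 5 KO untreated libraries (day 0), 7 WT and 8 KO libraries after 3 days of DSS, and 7 WT and 7 KO libraries after 7 days. The labels describe untreated mice of 9 to 11 and of 86 to 92 weeks and do not say which of these gave the day 0 libraries. Villin-driven Cre acts in the whole intestinal epithelium, so the deletion was not particular to goblet cells.

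Goblet cells are the secretory cells of the gut epithelium that make mucus. MUC2, the gel-forming mucin, polymerises into the layer that keeps bacteria away from the colon surface. FCGBP is cross-linked into that layer, ZG16 is a lectin that binds Gram-positive bacteria in it, and the trefoil peptide TFF3 is secreted with it and supports epithelial repair. AGR2 is a protein disulphide isomerase family member needed to process MUC2 in the endoplasmic reticulum. SPINK4 is a small secreted protein with a Kazal domain. RETNLB (RELMβ) and ANG4 are secreted antimicrobial proteins. ATOH1 commits progenitors to the secretory lineage, and SPDEF drives the maturation of goblet cells. These are bulk libraries, in which fewer goblet cells and less goblet cell RNA per cell cannot be told apart.

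Counts assigned to genes summed to 10503352 to 60644284 per library. Levels are given as CPM, a gene's counts relative to its library's total after TMM scaling of library sizes. Hk2 was 247 to 439.5 CPM in WT and 31.2 to 111 CPM in KO on day 0, and 231 to 598 against 56.6 to 260.5 CPM on day 7. On day 3 it was 99.3 to 224 CPM in WT and 70.9 to 131 CPM in 7 of the 8 KO libraries, while the library labelled d3_KO_345 had 439.6 CPM and goes against its label. The lowest WT library of day 3, d3_WT_346 at 99.3 CPM, lay within the range of those 7 KO libraries, so Hk2 does not separate it from KO. Libraries of day 0 also differed from all others in the share of counts from histone genes (0.266 to 0.413% against 0.012 to 0.0541%) and from mitochondrial ribosomal RNA (6.25 to 45.6% against 0.352 to 3.95%). Time on DSS and this difference in library make-up cannot be told apart. The 7 pan-epithelial markers were all present and summed to 8256 to 17984 CPM. Small intestine markers summed to 24.9 to 212 CPM, and colonocyte markers to 6971 to 19463 CPM.

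The promoters of Muc2, Fcgbp and Ang4 are shown. Among the mucus components within the 10 genes, Muc2 and Fcgbp had the lowest log2 fold changes from day 0, and Ang4 varied most of the 10 between animals. The 250 bases before the start site come from RefSeq (GRCm38.p6), which held a window for 6 of the 10 genes. Capitals mark CAGCTG, an E-box of the kind that ATOH1 and its partners bind, GGAT, a core that SPDEF prefers among ETS sites, and TATAA, each on either strand.
Muc2, chr7:141690090-141690339 (+): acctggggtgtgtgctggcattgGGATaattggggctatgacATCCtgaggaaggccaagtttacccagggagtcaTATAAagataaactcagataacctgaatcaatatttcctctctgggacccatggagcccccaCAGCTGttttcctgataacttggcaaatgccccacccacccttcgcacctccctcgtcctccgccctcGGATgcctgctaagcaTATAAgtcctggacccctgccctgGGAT
Fcgbp, chr7:28070986-28071235 (+): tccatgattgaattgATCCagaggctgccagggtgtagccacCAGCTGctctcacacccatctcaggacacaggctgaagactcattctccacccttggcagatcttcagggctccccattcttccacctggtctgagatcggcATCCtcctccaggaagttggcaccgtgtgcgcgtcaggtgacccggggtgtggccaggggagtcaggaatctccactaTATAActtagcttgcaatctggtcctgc
Ang4, chr14:51773591-51773840 (-): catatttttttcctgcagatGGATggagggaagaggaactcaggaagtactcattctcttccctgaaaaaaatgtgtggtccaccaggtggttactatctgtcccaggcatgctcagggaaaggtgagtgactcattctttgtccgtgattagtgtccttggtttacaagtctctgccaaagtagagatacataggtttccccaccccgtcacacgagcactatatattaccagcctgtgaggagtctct
CAGCTG lay 112 bases before the Muc2 start and 208 bases before the Fcgbp start, and in none of the other 4 windows (Atoh1, Agr2, Ang4 and Spdef), while 13% of all 32851 windows of this length held it. GGAT stood in 5 of the 6 windows and in 74.1% of all windows, so its presence separates few genes. TATAA stood 28 bases before the start of both Muc2 and Fcgbp, and in 3 of 6 windows against 22.8% of all. These are matches of letters and not shown sites.

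The genes lie on 7 chromosomes of GRCm38. Muc2 spans chr7:141690340-141754693 (+), Fcgbp chr7:28071236-28120862 (+) and Zg16 chr7:127050156-127051977 (-). Tff3 spans chr17:31125306-31129646 (-) and Spdef chr17:27714352-27728951 (-). Agr2 lies at chr12:35992907-36004087 (+), Spink4 at chr4:40920052-40931395 (+), Retnlb at chr16:48816856-48818891 (+), Ang4 at chr14:51763878-51773590 (-) and Atoh1 at chr6:64729146-64731233 (+). No other annotated gene overlapped any of them, which matters because counting ignored strand. Ang4 belongs to a cluster of near-identical angiogenin genes, so its reads could be split between copies: Ang5 and Ang6 had no count in any library.

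Together the 10 genes took a median of 2.30% of all counts in WT and 2.66% in KO libraries on day 0, 1.30 and 1.27% on day 3, and 0.831 and 0.767% on day 7. Muc2 alone held medians of 1.02 and 0.887%, then 0.456 and 0.448%, then 0.383 and 0.310%. Per kilobase of exon, Zg16 had the highest mean level of the 10 in every group, from 1810 ± 518 CPM per kb in KO on day 7 (SD, n = 7) to 3848 ± 1190 in WT on day 0 (n = 4). Second came Muc2 on day 0 (1413 ± 539 CPM per kb in WT), Agr2 on day 3 in both genotypes (1248 ± 272 in WT) and Spink4 in WT or Agr2 in KO on day 7 (950 ± 434 and 747 ± 163). On day 7 in WT the neighbours Spink4 and Agr2 (904 ± 476 CPM per kb) lay within each other's SD, and Tff3 (715 ± 167) within 1 SD of both. Spdef, Atoh1 and Ang4 were the last 3 of the order on day 7, with Atoh1 at 19.01 ± 2.66 CPM per kb in WT and Ang4 at 14.4 ± 4.41 in KO. In KO on days 0 and 3 Retnlb stood below Ang4 (219 ± 305 against 238 ± 390 CPM per kb on day 0), well within their SDs. The Muc2 value per kb depends on an annotation of 8 transcripts, of which the longest has 2926 bases in 7127 bases of merged exons.

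**Figure D1:**
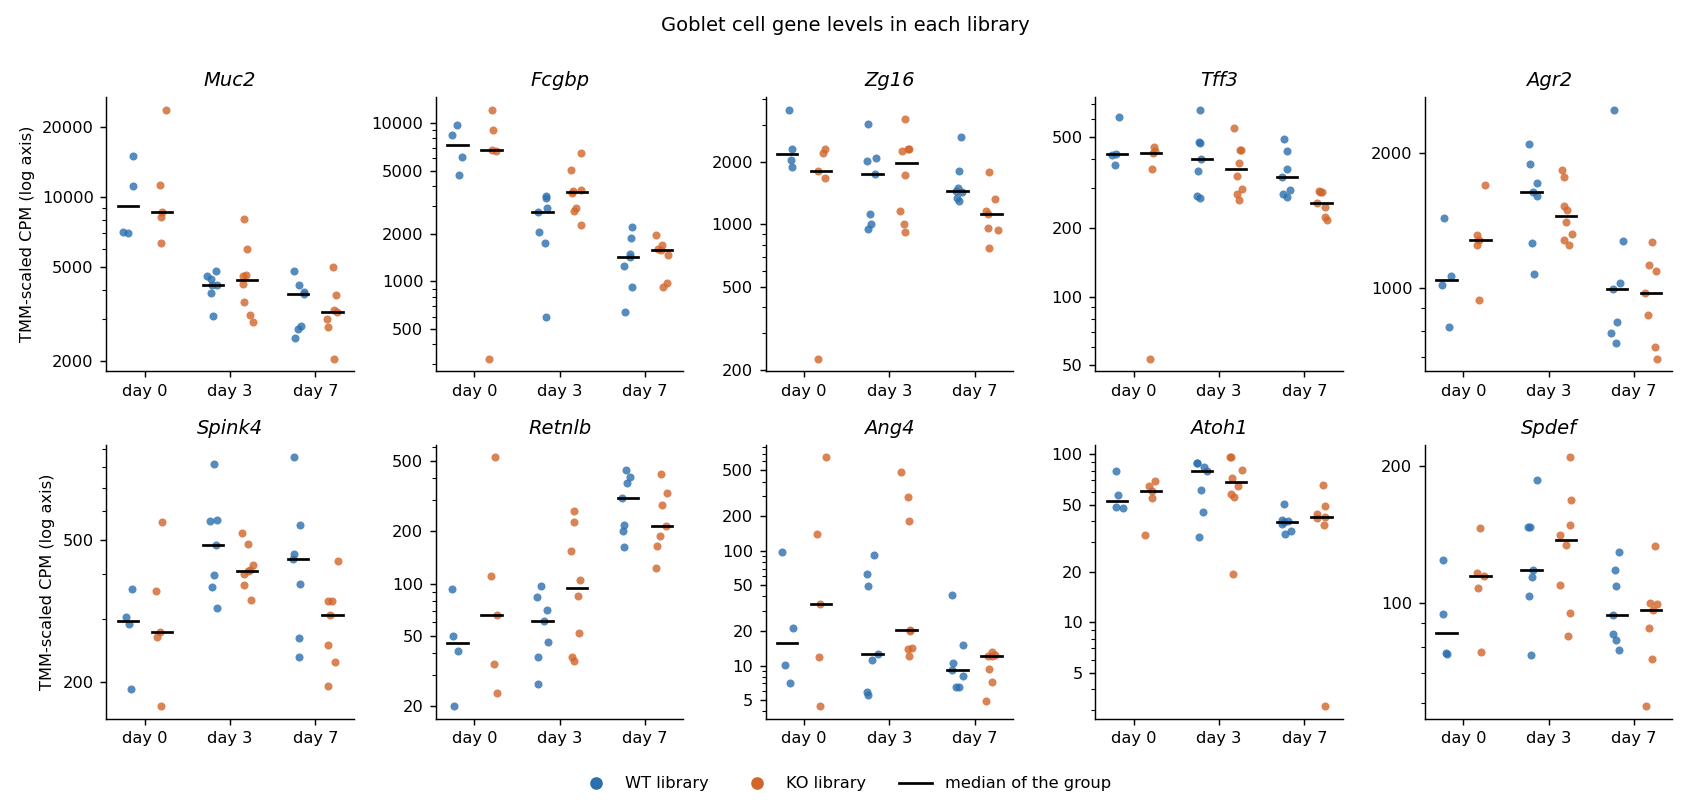
Level of each of the 10 goblet cell genes in each library, in TMM-scaled CPM on log axes, by day of DSS. Points are libraries (blue WT, orange KO) and bars are group medians: Retnlb is the gene whose WT libraries all lie higher on day 7 than on day 3, and single libraries lie far below their group for Fcgbp, Zg16 and Tff3 on day 0 and for Atoh1 on days 3 and 7.

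The course of colitis from day 3 to day 7 could be followed within each genotype without the day 0 libraries and their different make-up. Whether the libraries of these days were prepared together was not tested. In KO 5 of the 10 genes fell (Fcgbp, Agr2, Ang4, Tff3 and Spink4), and the other 5, Muc2 and Zg16 among them, did not pass the test. In WT, Retnlb rose 5.02-fold and Atoh1 fell, and the other 8 did not pass the test. An edgeR adjusted p under 0.05 counts as passing, and 19.3% of all genes tested passed in WT (10.6% higher and 8.7% lower) and 19.3% in KO (10.5% higher and 8.83% lower). The median log2 fold change over the 10 genes was -0.28 in WT and -0.58 in KO, beside 0.01 and -0.01 over all genes tested. The share of the 10 genes that passed was near that of all genes in WT and above it in KO. The estimate was below 0 for 9 of 10 genes in each genotype, Retnlb being the exception.

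**Figure D2:**
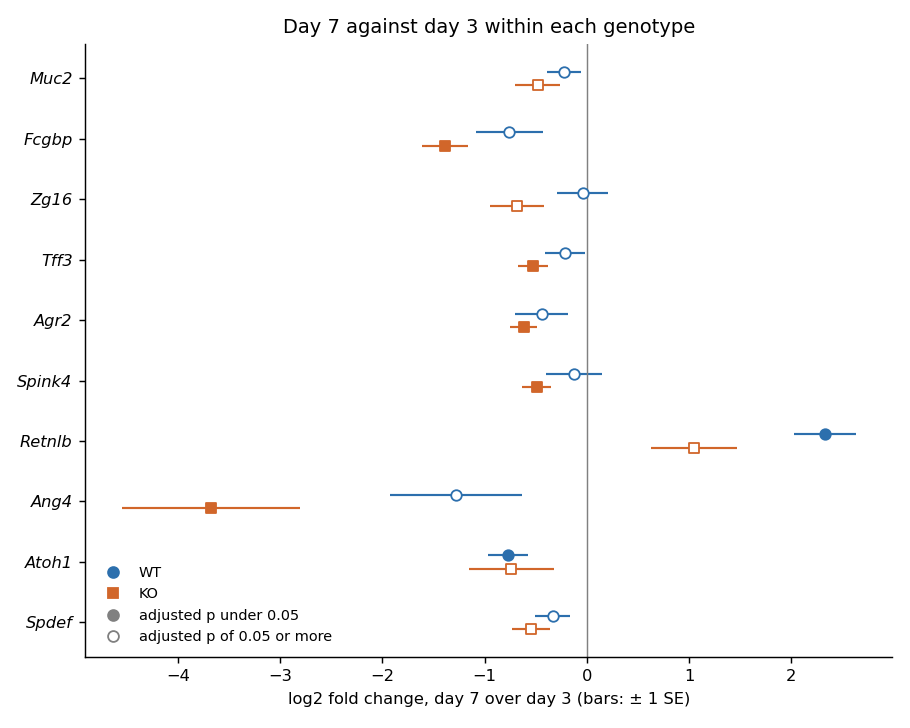
Log2 fold change of each goblet cell gene from day 3 to day 7 of DSS within WT (blue circles) and within KO (orange squares), with bars of 1 SE and filled symbols where the adjusted p was under 0.05. Retnlb is to the right of 0 in both genotypes, at 2.33 in WT and 1.04 in KO, and Ang4 in KO is farthest to the left at -3.68.

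Muc2 was 3114 to 4835 CPM (median 4209) in WT on day 3 and 2495 to 4851 (median 3839) on day 7. In KO it was 2926 to 8037 CPM (median 4415) and then 2037 to 5036 (median 3226). The days overlapped in both genotypes, and the log2 fold changes of -0.22 (SE 0.17, adjusted p = 0.391) and -0.48 (SE 0.22, adjusted p = 0.149) did not pass.

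Fcgbp was 2280 to 6444 CPM (median 3674) in KO on day 3 and 926 to 1968 (median 1584) on day 7, so that all 7 libraries of day 7 lay below all 8 of day 3. Such a separation downwards was found for 2.51% of all genes. It fell by 1.39 on the log2 scale in KO (SE 0.22, adjusted p = 0.000394), or 2.62-fold. In WT the levels were 600.1 to 3451 CPM (median 2744) on day 3 and 642 to 2217 (median 1428) on day 7, which gave -0.76 on the log2 scale (SE 0.33, adjusted p = 0.119). Whether the WT value passed rested on 1 library: without d3_WT_381, which had 600.1 CPM where the other 6 had 1748 to 3451, it was -0.94 (SE 0.25, adjusted p = 0.0141). Leaving out each library in turn gave -0.94 to -0.64.

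Zg16 was 949 to 3036 CPM (median 1750) in WT on day 3 and 1297 to 2620 (median 1447) on day 7. In KO it was 918 to 3206 CPM (median 1978) and then 773 to 1777 (median 1121). The ranges overlapped in both genotypes, with log2 fold changes of -0.04 in WT (SE 0.25, adjusted p = 0.929) and -0.68 in KO (SE 0.26, adjusted p = 0.0812). The KO value passed when d3_KO_350 (-0.78, adjusted p = 0.0475), d3_KO_351 (-0.78, adjusted p = 0.039) or d7_KO_420 (-0.82, adjusted p = 0.0334) was left out.

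Tff3 was 266 to 547 CPM (median 362) in KO on day 3 and 216 to 292 (median 257) on day 7. The day 7 libraries were tightly grouped, and all 7 lay below the day 3 median. It fell by 0.53 on the log2 scale in KO (SE 0.14, adjusted p = 0.0152), a call lost with all 38 libraries in the fit (-0.49, adjusted p = 0.187). In WT it was 272 to 661 CPM (median 402) and then 273 to 490.1 (median 334), a difference of -0.22 (SE 0.20, adjusted p = 0.487) with wide overlap.

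Agr2, the folding factor of the mucin, was 1248 to 1837 CPM (median 1446) in KO on day 3 and 694 to 1263 (median 975) on day 7. Only the highest library of day 7 reached the range of day 3, and Agr2 fell by 0.62 on the log2 scale (SE 0.13, adjusted p = 0.00339). In WT it was 1074 to 2097 CPM (median 1635) and then 753 to 2502 (median 991), with a log2 fold change of -0.44 (SE 0.26, adjusted p = 0.257). The highest WT value of both days belonged to d7_WT_386, without which the change was -0.77 (SE 0.17, adjusted p = 0.00507). Among the DSS libraries, d7_WT_386 and d3_WT_381 had the fewest counts (25180482 and 26743715) and the fewest genes detected (19831 and 19084). They also had the highest shares of counts from the mitochondrial genome (26.6 and 41.7%).

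Spink4 was 339 to 521 CPM (median 409.7) in KO on day 3 and 194 to 436 (median 307) on day 7. Of the 7 libraries of day 7, 6 lay below all of day 3. It fell by 0.49 on the log2 scale (SE 0.15, adjusted p = 0.0255), and the call was lost without d7_KO_367 (-0.45, adjusted p = 0.058) or d7_KO_421 (-0.44, adjusted p = 0.0517), and with all 38 libraries in the fit (-0.46, adjusted p = 0.19). In WT Spink4 was 322 to 817 CPM (median 483) and then 235 to 852 (median 440.5), a difference of -0.13 (SE 0.27, adjusted p = 0.79).

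Retnlb was 26.8 to 97.0 CPM (median 61.6) in WT on day 3 and 161 to 445 (median 308) on day 7. Every WT library of day 7 lay above every one of day 3, as was the case for 2.7% of all genes. It rose by 2.33 on the log2 scale (SE 0.30, adjusted p = 0.000125). In KO it was 36.0 to 258 CPM (median 94.4) and then 122 to 420.9 (median 213). The day 3 KO libraries spread 7.17-fold and reached into the range of day 7, and the difference of 1.04 (SE 0.42, adjusted p = 0.0972) did not pass. Without d3_KO_349, the highest of day 3, it was 1.31 (SE 0.41, adjusted p = 0.0385).

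Ang4, the other antimicrobial product, was 12.2 to 484 CPM (median 20.2) in KO on day 3 and 4.93 to 13.2 (median 12.1) on day 7. The 3 highest libraries of day 3 held 183, 295 and 484 CPM and the other 5 at most 20.4, while on day 7 all 7 were at most 13.2. It fell by 3.68 on the log2 scale (SE 0.87, adjusted p = 0.0066), or -2.98 without d3_KO_350 (adjusted p = 0.0139). In WT it was 5.595 to 92.1 CPM (median 12.5) and then 6.47 to 41.3 (median 9.22), with a log2 fold change of -1.28 (SE 0.65, adjusted p = 0.186). Without d7_WT_370, the WT library at 41.3 CPM, that change was -1.86 (SE 0.63, adjusted p = 0.0463).

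Atoh1, at the head of the lineage, was 32.2 to 89.4 CPM (median 80.2) in WT on day 3 and 33.4 to 50.7 (median 39.6) on day 7. It fell by 0.77 on the log2 scale (SE 0.19, adjusted p = 0.0113), and 5 of the 7 libraries of day 3 lay above the whole range of day 7. Of the other two, d3_WT_381 had 45.4 CPM and d3_WT_346 was below every library of day 7; without it the change was -0.90 (adjusted p = 0.000915). The call was lost when a small intestine score entered the fit (-0.48, adjusted p = 0.104) and with all 38 libraries in the fit (-0.75, adjusted p = 0.0877). In KO it was 19.4 to 96.4 CPM (median 68.7) and then 3.16 to 65.4 (median 42.5), with a log2 fold change of -0.74 (SE 0.42, adjusted p = 0.246). The lowest values belonged to the library labelled d3_KO_345 and to d7_KO_420; the change was -0.88 (adjusted p = 0.118) without the first and -0.54 (adjusted p = 0.157) without the second.

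Spdef was 76.8 to 186 CPM (median 118) in WT on day 3 and 78.7 to 129.5 (median 93.7) on day 7, a difference of -0.34 (SE 0.17, adjusted p = 0.186). In KO it was 84.7 to 209 CPM (median 137) and then 59.2 to 133 (median 96.4). The KO value of -0.55 (SE 0.19, adjusted p = 0.0531) lay just outside the threshold. It passed with DESeq2 (adjusted p = 0.034), with all 38 libraries in the fit (-0.51, adjusted p = 0.0427), and without d3_KO_385 (-0.60, adjusted p = 0.035), d3_KO_392 (-0.62, adjusted p = 0.0262) or d7_KO_423 (-0.65, adjusted p = 0.0236). The WT value passed without d3_WT_381 (-0.44, adjusted p = 0.0435).

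Immune transcripts moved with the same step. All 7 neutrophil markers rose in each genotype, and Retnlg and Mmp8 had 3 counts or fewer in every WT library of day 3. Their summed level went from 8.05 to 45.3 CPM on day 3 to 146 to 1043 on day 7 in WT, and from 13.9 to 149 to 120 to 1728 in KO. Of the 12 genes of an immune score (mean log2 CPM), 10 rose in WT and 12 in KO. The score was -0.45 to 0.40 in WT on day 3 and 2.66 to 5.00 on day 7, and -0.02 to 2.66 against 2.70 to 4.53 in KO. With that score as a covariate 0 of the 10 goblet cell genes passed in either genotype, while 0 of all genes in WT and 4 in KO did. The score did not overlap between the days in either genotype, so score and day cannot be told apart in these libraries. Markers of position along the gut moved as well, and some markers of other epithelial cells passed. The 5 distal Hox genes measured (Hoxa13, Hoxb13, Hoxd10, Hoxd11 and Hoxd13) all fell in each genotype. Hoxb13 was 76.8 to 322 CPM on day 3 and 10.2 to 106 on day 7 in WT (-1.81, SE 0.43, adjusted p = 0.00794), and 63.2 to 262 and 3.40 to 54.7 CPM in KO (-2.54, SE 0.44, adjusted p = 0.000679). Of 7 tuft cell markers 1 rose and 1 fell in WT, and 1 rose and 4 fell in KO, where their summed level was 18.2 to 94.6 CPM on day 3 and 26.8 to 70.4 on day 7. Of 10 colonocyte markers 1 rose and 2 fell in WT, and 0 rose and 5 fell in KO, with sums of 7659.9 to 17738 and 9915 to 19131 CPM in KO. Of 8 enteroendocrine markers 1 rose and 0 fell in each genotype. Of the 4 stem cell markers tested and the 6 proliferation markers, 0 passed in either genotype. Of the 7 pan-epithelial markers 0 passed in WT and 1 fell in KO. Over all genes, 10.6% rose and 8.7% fell in WT, and 10.5% rose and 8.83% fell in KO. The part of these markers in the result was not tested.

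A list of 32 other goblet cell genes, none of them among the 10, was followed over the same step, in which 8.7% of all genes fell in WT and 8.83% in KO. This list was chosen with earlier results of these data known, as were the 10 genes and the other lists. Its counts are therefore a description and not independent support. From day 3 to day 7, 19 of the 32 fell and 0 rose in WT, and 19 fell and 0 rose in KO, of which 15 fell in both; the median log2 fold change was -0.52 in both genotypes. Clca1, a metalloprotease that processes MUC2 in the mucus, fell from a median of 1348 to 368.2 CPM in WT (-1.57, SE 0.36, adjusted p = 0.00672) and from 1878 to 396 in KO (-2.66, SE 0.37, adjusted p = 0.000133). B3gnt7, a glycosyltransferase that extends sugar chains, fell, with -1.93 in WT (SE 0.40, adjusted p = 0.00358) and -2.14 in KO (SE 0.30, adjusted p = 0.000144). Klk1, a kallikrein protease, fell, with -1.24 in WT (adjusted p = 0.000143) and -1.18 in KO (adjusted p = 6.63e-05), and Scin, which severs actin, fell by 1.18 in KO (adjusted p = 2.64e-05). The transcription factor Foxa3 fell, with -0.86 in WT (adjusted p = 0.00214) and -0.84 in KO (adjusted p = 0.00962), and Oit1 by 0.76 in KO (adjusted p = 9.88e-06). The chemokine Ccl9 had the highest estimates of the list, 0.62 in WT and 0.88 in KO, and did not pass.

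**Figure D3:**
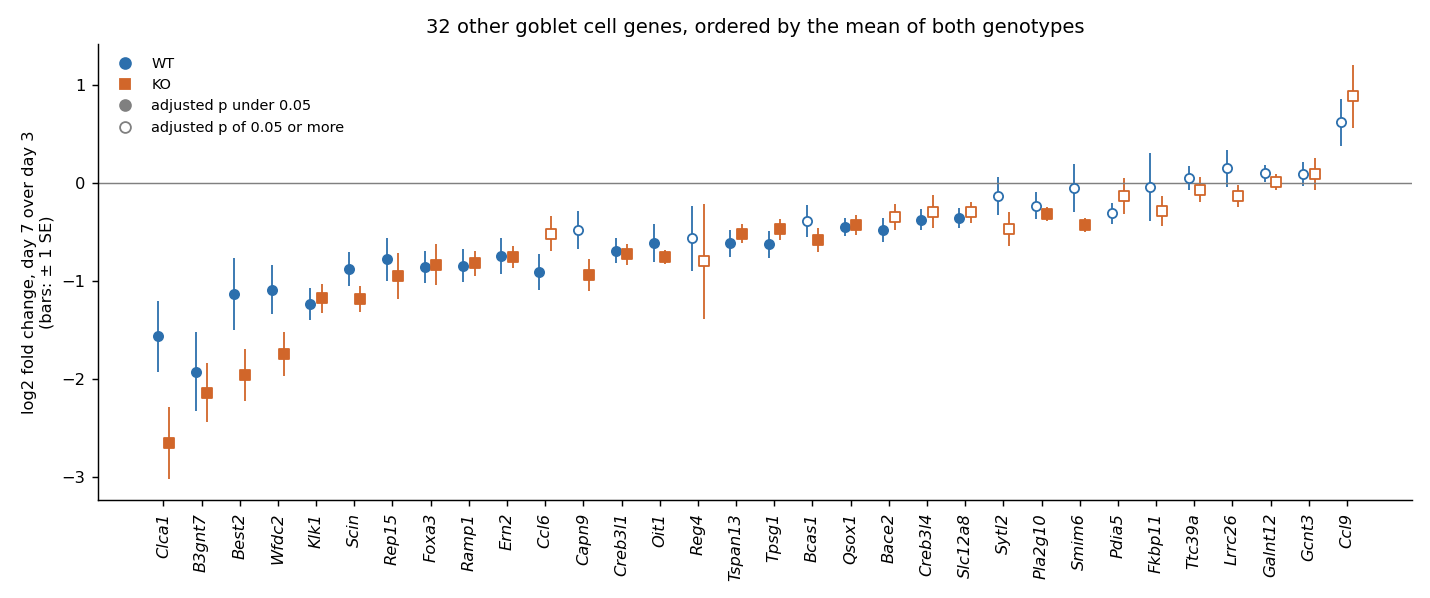
Log2 fold change from day 3 to day 7 for the 32 other goblet cell genes, ordered by the mean of both genotypes (blue circles WT, orange squares KO, bars 1 SE, filled where the adjusted p was under 0.05). Clca1 and B3gnt7 are lowest in the order, and 19 filled symbols stand below 0 in each genotype.

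Genes that build and finish the mucus showed both directions. The counts stand beside 10.6% of all genes rising and 8.7% falling in WT, and 10.5 and 8.83% in KO. Of 26 mucin O-glycosylation genes tested, 4 rose and 4 fell in WT, and 3 rose and 4 fell in KO (medians 0.12 and 0.01). Gcnt4, a branching enzyme, rose by 1.52 in WT (adjusted p = 0.000261) and 1.10 in KO (adjusted p = 0.000592), and the fucosyltransferase Fut2 rose by 0.69 (adjusted p = 0.0132) and 0.66 (adjusted p = 0.0247). Galnt1 and St3gal1 rose in WT alone among those called, and B4galnt2 in KO (0.55, adjusted p = 0.00166). B3gnt7 and Galnt5 were called lower in both, Galnt10 and St6galnac2 in WT, and Galnt7 and the sialic acid synthase Nans in KO; none of these differences between genotypes was called in the interaction. Among 29 genes of the secretory pathway and endoplasmic reticulum folding, 0 rose and 4 fell in WT and 3 fell in KO (medians 0.10 and 0.03). These included Ern2, the goblet cell form of the stress sensor IRE1 (-0.75 in WT, adjusted p = 0.00975; -0.76 in KO, adjusted p = 0.00017), and the transcription factor Creb3l1 (-0.69, adjusted p = 0.00164; -0.73, adjusted p = 0.000223), both also in the list of 32. Creb3l4 and Txndc5 completed the count in WT and Tmed3 that in KO. Creb3l4, and B3gnt7 above, are also in the list of 32. Of 13 partners in the mucus barrier, 2 rose and 3 fell in WT and 1 rose and 3 fell in KO (medians 0.01 and -0.17). The 3 that fell were Clca1, Klk1 and Tgm3 in each genotype, of which Clca1 and Klk1 were already counted in the list of 32. The transmembrane mucin Muc13 rose in WT (0.60, adjusted p = 0.036). Dmbt1, a secreted scavenger receptor that binds bacteria, rose by 1.27 in WT (adjusted p = 0.000528) and 1.16 in KO (adjusted p = 1.73e-05), while the transglutaminase Tgm3 fell, with -2.90 in WT (adjusted p = 0.00242) and -3.32 in KO (adjusted p = 0.00262).

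The lineage regulators and the cytokine signals that act on goblet cells came next. Shares of all genes were again 10.6% higher and 8.7% lower in WT, and 10.5 and 8.83% in KO. Of 19 secretory lineage regulators 0 rose and 4 fell in WT, and 1 rose and 4 fell in KO (medians -0.25 and -0.26). Sox9, a factor of crypt progenitors, fell, with -0.90 in WT (adjusted p = 0.00179) and -1.07 in KO (adjusted p = 0.00137). The Notch ligand Dll1 fell by 0.97 in WT (adjusted p = 0.00102), and the receptor Notch2 rose by 0.91 in KO (adjusted p = 0.00115). Foxa2, a forkhead factor, fell, with -1.15 in WT (adjusted p = 0.00242) and -1.12 in KO (adjusted p = 0.00528). Foxa3, given above, was called in both genotypes, and the tuft cell factor Pou2f3 in KO. Gfi1, which acts downstream of ATOH1, was -0.43 in WT (adjusted p = 0.3) and -0.53 in KO (adjusted p = 0.377). Of 9 tested genes of type 2 and IL-22 signalling, 4 rose and 0 fell in each genotype (medians 0.23 and 0.24). The shared receptor chain Il4ra rose by 1.31 in WT (adjusted p = 0.000213) and 1.34 in KO (adjusted p = 0.00018), and the alarmin Il33 rose by 2.19 (adjusted p = 0.00569) and 2.37 (adjusted p = 0.00311). Il22ra2, the soluble IL-22 binding protein, and Stat3 made up the rest in WT, and Il10rb and Stat6 in KO. The ligand Il13 had 3 counts or fewer in every library.

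Of 17 relatives of the 10 genes, 16 were in the files and 7 were tested in each genotype. Retnlg, a resistin-like gene of neutrophils, rose in both and was 1 of the 7 neutrophil markers. The trefoil gene Tff2 fell, with -2.42 in WT (adjusted p = 0.00554) and -2.18 in KO (adjusted p = 0.00776) from mean levels of 0.713 and 0.343 CPM on day 3. In all, 1 relative rose and 2 fell in WT (Tff2 and Ang), and 1 rose and 3 fell in KO (Tff2, Agr3 and Spink1), with medians of -0.32 and -0.74. The shares over all genes are those given above.

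The genotype comparison asks whether loss of epithelial Hk2 changed these genes at a given day. With edgeR, 0 of the 10 goblet cell genes passed on day 0, on day 3 or on day 7, where 0.0335%, 0.00647% and 0.00642% of all genes did. Hk2 itself passed on day 0 (-2.20, adjusted p = 0.0331). It did not pass on day 3 (-0.27, adjusted p = 0.802) or day 7 (-1.25, adjusted p = 0.291). The 0 calls on those days therefore do not show that the 10 genes were unchanged. At an unadjusted p under 0.05 the counts were 0, 2 and 3 of 10, beside 1563 of 14944, 1218 of 15461 and 2017 of 15584 genes. The DESeq2 Wald test also called 0 of the 10 on each day. KO and WT libraries overlapped for all 10 genes on each of the 3 days, while 3.68, 0.0323 and 0.302% of all genes did not overlap. The median log2 fold change of the 10 genes was 0.23, 0.11 and -0.29, beside -0.00 for all genes on each day. Of the 141 genes in the 7 lists described above, 118 were tested on day 0 and 123 on days 3 and 7, and 0 passed with edgeR. At an unadjusted p under 0.05 there were 14, 13 and 16, and DESeq2 called 1 (Gcnt4), 0 and 1 (Best2).

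**Figure D4:**
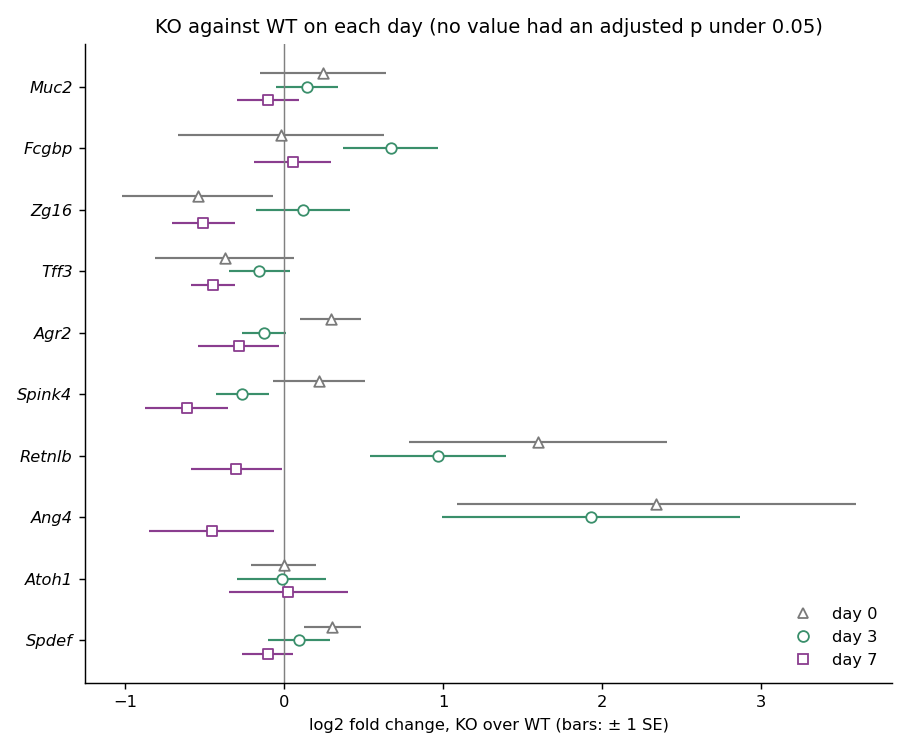
Log2 fold change of each goblet cell gene between KO and WT on day 0 (grey triangles), day 3 (green circles) and day 7 (purple squares), with bars of 1 SE. All symbols are open because 0 of 10 genes passed on any day, and the widest bars are those of Ang4 on days 0 and 3 and of Retnlb on day 0.

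On day 3 the levels above gave log2 fold changes of 0.67 for Fcgbp (SE 0.30), 0.97 for Retnlb (SE 0.43) and 1.93 for Ang4 (SE 0.94), each with an adjusted p of 0.623. Without d3_WT_381 and the library labelled d3_KO_345 the values were 0.50 for Fcgbp, 1.26 for Retnlb and 2.22 for Ang4, each with an adjusted p of 0.78. On day 7 the 3 genes with an unadjusted p under 0.05 had negative estimates: Spink4 at -0.61 (SE 0.26, adjusted p = 0.358), Zg16 at -0.51 (SE 0.20, adjusted p = 0.339) and Tff3 at -0.45 (SE 0.14, adjusted p = 0.291). Ang4 was at -0.46 with a wider error (SE 0.39, adjusted p = 0.616). The 7 KO libraries of day 7 held at most 292 CPM of Tff3, and 5 of the 7 WT libraries held more than that. Leaving out each library in turn brought the adjusted p on day 7 to at least 0.0742 for Zg16 and 0.0861 for Tff3.

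Over both DSS days in 1 model with day as a term, 0 of 10 genes passed and 0.0122% of all genes did. Hk2 did not pass in this model either (-0.75, adjusted p = 0.112). DESeq2 also called 0 of the 10. With edgeR, 2 of the 10 had an unadjusted p under 0.05, beside 3523 of 16371 genes. Spink4 was at -0.44 (SE 0.16, adjusted p = 0.132) and Tff3 at -0.30 (SE 0.12, adjusted p = 0.167). For Muc2 the estimate was 0.02 with a 95% interval (normal approximation from the SE) of -0.25 to 0.30, for Spdef -0.00 with -0.26 to 0.25, and for Atoh1 0.00 with -0.47 to 0.47. The intervals for Ang4 (-0.43 to 1.99) and Retnlb (-0.24 to 0.93) were wider.

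Whether the step from day 3 to day 7 differed between genotypes was tested as an interaction. It passed for 0 of 10 genes and for 0% of all genes with edgeR, DESeq2 called 0 of the 10, and 2 of the 10 and 440 of 16371 genes had an unadjusted p under 0.05. Ang4 had the lowest estimate at -2.39 (SE 1.08), followed by Retnlb at -1.27 (SE 0.54), both with an adjusted p of 1; without d3_WT_381 and the library labelled d3_KO_345 they were -2.68 and -1.56 (adjusted p = 0.935). The calls within KO for Fcgbp, Agr2, Tff3 and Spink4 were therefore not shown to differ from WT, with interaction estimates of -0.62, -0.15, -0.29 and -0.34.

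The DSS days were also compared with day 0 within each genotype. Both comparisons share the day 0 libraries, whose different make-up is given above. On day 3 in WT, where 46% of all genes passed (20.4% higher and 25.6% lower), 1 of the 10 rose and 2 fell. On day 7 in WT, with 56.9% passing (27.8% higher and 29.2% lower), 1 rose and 5 fell. In KO 1 fell on day 3, when 46.3% of all genes passed (22.6% higher and 23.7% lower), and 4 fell on day 7, when 54.6% did (27.3% in each direction). Of the 32 other goblet cell genes 11 rose and 1 fell on day 3 in WT, and 8 rose and 1 fell in KO (medians 0.34 and 0.15). On day 7, 5 rose and 8 fell in WT, and 4 rose and 16 fell in KO (medians -0.26 and -0.56). Counted in either direction, the shares of the 10 genes that passed were near or below those of all genes. In the lower direction on day 7 they were above, with 5 of 10 in WT and 4 of 10 in KO.

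Muc2 was 7006, 7070, 11183 and 15034 CPM in the WT libraries of day 0 and 6342, 8208, 8661, 11281 and 23660 in KO. All 4 WT values lay above every WT value of DSS, and all 5 KO values above every KO value of day 7. Such a separation downwards was found for 16.3% of all genes on day 3 and 19.4% on day 7 in WT, and for 14.1% on day 7 in KO. The log2 fold change against day 0 was -1.36 (SE 0.23, adjusted p = 0.000312) on day 3 and -1.58 (SE 0.26, adjusted p = 0.000203) on day 7 in WT, and -1.45 (SE 0.32, adjusted p = 0.00154) and -1.93 (SE 0.31, adjusted p = 0.000151) in KO. Fcgbp was 4669, 6097, 8384 and 9748 CPM in WT on day 0 and 326, 6612, 6749, 9035 and 12144 in KO. In WT it stood above both DSS days in every library, and it fell, with -1.68 (SE 0.36, adjusted p = 0.00198) on day 3 and -2.44 (SE 0.30, adjusted p = 1.98e-05) on day 7. In KO it was -0.99 (SE 0.50, adjusted p = 0.115) on day 3 and fell by 2.37 (SE 0.53, adjusted p = 0.00183) on day 7; without d0_KO_32, the library at 326 CPM, the day 3 value was -1.25 (adjusted p = 0.000868).

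Zg16 was 1892, 2037, 2308 and 3553 CPM in WT on day 0 and 227, 1677, 1805, 2200 and 2305 in KO. Tff3 was 377, 417, 424 and 615 CPM in WT and 53.4, 362, 428, 434 and 451 in KO. The low KO value of both genes belonged to d0_KO_32, which also had the highest mitochondrial ribosomal RNA share of all libraries (45.6%) and 119 CPM of Clca1 against at least 2145 in the other 4 KO libraries. On day 7 in WT, Zg16 (-0.66, adjusted p = 0.0227) and Tff3 (-0.45, adjusted p = 0.0472) fell; the first was lost without d0_WT_31 (-0.40, adjusted p = 0.128), and the second without any 1 of 8 libraries, with values of -0.26 to -0.50. Both calls were also lost with all 38 libraries in the fit (adjusted p = 0.137 for Zg16 and 0.205 for Tff3) and with the immune score as a covariate (adjusted p = 0.971 and 0.809). In KO on day 7 Zg16 was -0.62 (adjusted p = 0.196) and Tff3 -0.53 (adjusted p = 0.21); without d0_KO_32 they were -0.89 (adjusted p = 0.00174) and -0.79 (adjusted p = 2.85e-05).

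Agr2 was 816, 1014, 1064 and 1431 CPM in WT on day 0 and 939, 1248, 1275, 1309.8 and 1700 in KO. It fell by 0.54 on day 7 in KO (SE 0.17, adjusted p = 0.0146), a call lost without d0_KO_54 (-0.42, adjusted p = 0.0526). Spink4 was 191, 290, 304 and 365 CPM in WT and 171, 267, 276, 359.8 and 559 in KO. It rose by 0.71 on day 3 in WT (SE 0.25, adjusted p = 0.0312), and that call was lost without d0_WT_41, d0_WT_43, d0_WT_46, d3_WT_346 or d3_WT_486 (0.55 to 0.74, adjusted p 0.051 to 0.116), or with a mean CPM of at least 1 as the filter (adjusted p = 0.0551).

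Retnlb was 20.01, 41.1, 50.1 and 93.2 CPM in WT on day 0 and 23.8, 34.7, 65.9, 110 and 525.9 in KO. In WT it rose by 2.49 (SE 0.40, adjusted p = 0.00019) on day 7, with all 7 libraries above all 4 of day 0 (20.6% of all genes were so placed), and its day 3 value was 0.16 (adjusted p = 0.763). In KO the day 7 value was 0.58 (SE 0.63, adjusted p = 0.456); without d0_KO_54, the library at 525.9 CPM, it was 1.957 (SE 0.44, adjusted p = 0.00256). Ang4 was 7.00, 10.0, 21.4 and 98.3 CPM in WT and 4.43, 11.9, 34.4, 141 and 654 in KO. It fell by 4.16 on day 7 in KO (SE 0.90, adjusted p = 0.00149), or -2.35 without d0_KO_54 (adjusted p = 0.00826). The WT value of -1.35 (SE 0.66, adjusted p = 0.0969) passed without d0_WT_43 (-1.69, adjusted p = 0.0499) or d7_WT_370 (-1.94, adjusted p = 0.0145), and was 0.065 without d0_WT_31, the WT library at 98.3 CPM.

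Atoh1 was 48.1, 48.4, 57.1 and 79.8 CPM in WT on day 0 and 33.1, 55.0, 60.9, 64.8 and 69.9 in KO. It fell by 0.63 on day 7 in WT (SE 0.15, adjusted p = 0.00255) and was -0.60 in KO (SE 0.44, adjusted p = 0.264). The WT call was lost with all 38 libraries in the fit (-0.60, adjusted p = 0.156) and with the immune score as a covariate (-0.90, adjusted p = 0.128). Spdef was 77.2, 77.4, 94.4 and 124 CPM in WT and 77.9, 108, 114, 116 and 146 in KO. Its values ranged from -0.39 (day 7 in KO, adjusted p = 0.0756) to 0.35 (day 3 in WT, adjusted p = 0.176), and it passed in KO on day 7 without d0_KO_32 (-0.48, adjusted p = 0.0309) or d7_KO_423 (-0.50, adjusted p = 0.0202), and in WT on day 3 without d3_WT_381 (0.46, adjusted p = 0.0387).

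Across the 29 DSS libraries, after the mean of each group was subtracted from log2 CPM, the 10 genes did not vary as 1 block. Among 45 pairs, Pearson's r ran from -0.424 to 0.902 with a median of 0.103, and 4 pairs had an adjusted permutation p under 0.05. Zg16 and Tff3 had r = 0.902 and rho = 0.886 (permutation p = 1e-05 for each, the smallest 100000 resamples can give; adjusted p = 0.000225 and 0.00045), and r = 0.865 without the 2 libraries farthest from the median. Agr2 and Spink4 had r = 0.808 (permutation p = 1e-05, adjusted p = 0.000225) and rho = 0.723 (permutation p = 9e-05, adjusted p = 0.00202), and r = 0.739 without the 2 farthest. Tff3 and Agr2 had r = 0.504 (permutation p = 0.0043, adjusted p = 0.0484) and rho = 0.558 (permutation p = 0.00217, adjusted p = 0.0325), with r = 0.535 without the 2 farthest. Muc2 and Spdef had r = 0.565 (permutation p = 0.00275, adjusted p = 0.0412) and rho = 0.490 (permutation p = 0.0113, adjusted p = 0.102), with r = 0.468 without the 2 farthest. Retnlb and Ang4 had r = 0.594 (permutation p = 0.00793), which did not pass over the 45 pairs (adjusted p = 0.0714). Genes outside the 10 reached a higher r with Agr2 (Ywhaq, 0.907) and with Spink4 (Nhp2, 0.882) than that pair had. For Zg16 and Tff3 the highest were 0.786 (Anxa3) and 0.850 (1600012H06Rik), below the r of that pair. How often pairs of other genes reach such values was not tested. All points share library depth and composition.

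Ang4 varied most within a group, 147.5-fold between the KO libraries of day 0 and 39.8-fold between those of day 3. At least 40 CPM, a level chosen after the values were seen, was reached in 10 of the 38 libraries: 1 WT and 2 KO on day 0, 3 WT and 3 KO on day 3, 1 WT and 0 KO on day 7. The library with the most Ang4, d0_KO_54 at 654 CPM, also had the most Retnlb (525.9 CPM), Clca1 (8623 CPM) and the lectin Itln1 (31.7 CPM) of all 38. The next, d3_KO_350 at 484 CPM, had 226 CPM of Retnlb, 6946 of Clca1 and 18.4 of Itln1, and d3_KO_349 at 295 CPM had 258, 3650 and 17.7. On day 7 Retnlb was 122 to 445 CPM in libraries with 4.93 to 41.3 CPM of Ang4, so that all 14 libraries of day 7 had Retnlb above the WT range of day 3, and Ang4 no higher than 41.3 CPM. Itln1 and Clca1 were also among the 3 genes most like Ang4 over the 29 DSS libraries, with r = 0.839 and 0.629.

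**Figure D5:**
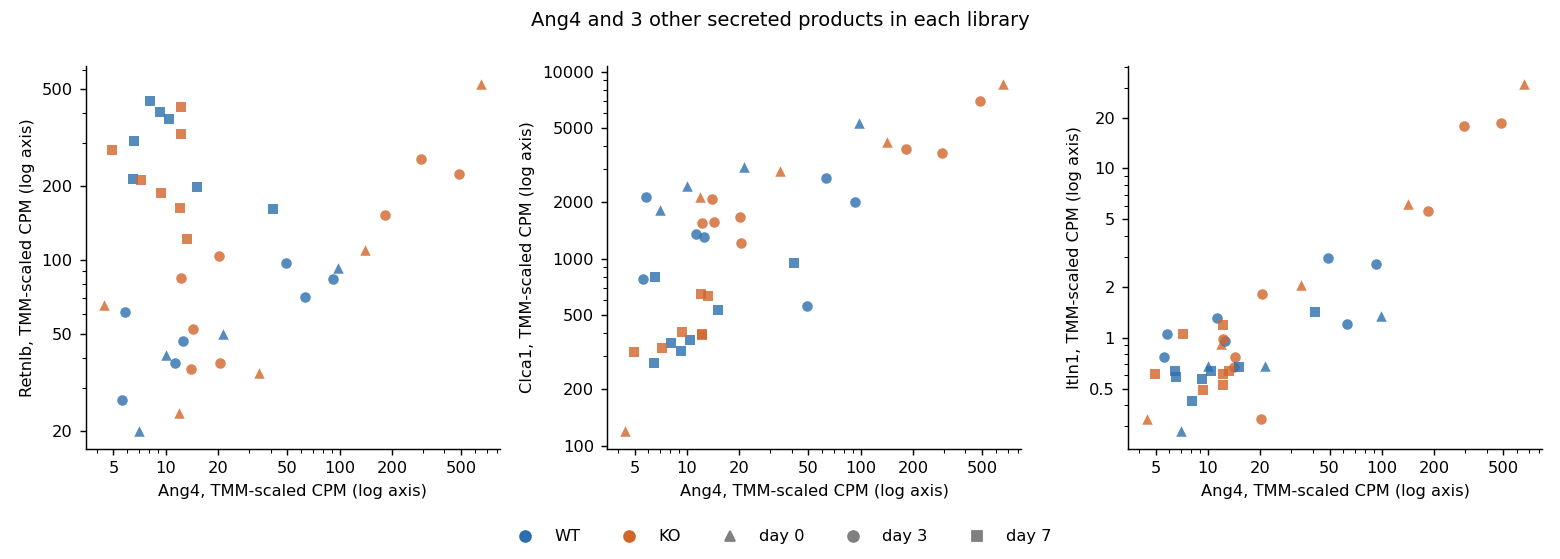
Ang4 against Retnlb, Clca1 and Itln1 in each of the 38 libraries, in TMM-scaled CPM on log axes (blue WT, orange KO; triangles day 0, circles day 3, squares day 7). The libraries with the most Ang4, up to 654 CPM, are also high in all 3 others, while the day 7 squares have Retnlb of 122 to 445 CPM at low Ang4.

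By the same measure, the genes most like the mean of the 10 members were 0610037L13Rik (r = 0.766), the tetraspanin Tspan13 of the goblet cell list (r = 0.748), 1700066B19Rik (r = 0.688), Cox18 (r = 0.687) and 2210011C24Rik (r = 0.684), over 29 libraries. Atoh1 was most like Zfp759 (r = 0.937), Iqcc (r = 0.922) and Gfi1 (r = 0.920). Gfi1 was 1.45 CPM in d7_KO_420 and 3.55 CPM in the library labelled d3_KO_345, the 2 libraries with the least Atoh1 (3.16 and 19.4 CPM). The library with the next lowest Atoh1, d3_WT_346 at 32.2 CPM, had 3.64 CPM of Gfi1.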

How the data were processed

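Per the file headers, the authors made the deposited counts with featureCounts 1.6.2 (paired reads, strand ignored, although the kit was stranded); the submitters' processing notes name Trim Galore, STAR, featureCounts 1.5.2 and GRCm38. The 2 lanes of each library were summed. Counts were scaled by TMM, filtered with filterByExpr and tested with edgeR 4.0.16 in R 4.3.3 (quasi-likelihood test, Benjamini-Hochberg over all genes tested, adjusted p under 0.05 called), with the compared groups alone in each fit. The test was checked on simulated counts. CPM are TMM-scaled, and log2 CPM use a prior count of 2.

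Alternatives were DESeq2 size factors, the DESeq2 1.42.0 Wald test, no filter, a mean CPM of at least 1, all 38 libraries in the fit, removal of mitochondrial genes, an immune or small intestine score as covariate, each library left out and, added after seeing the data, the removal of d3_WT_381 and d3_KO_345. The members and lists were chosen with earlier results of these data known. Named are the 10 members, Hk2 and the 5 genes most like the members' mean. Of each list, up to 3 genes per direction by p and every gene of a count of 5 or fewer are named. Clca1, B3gnt7, the Hox genes, Itln1, Gfi1, Ccl9 and Il13 were added after their values were seen. So were the genes most like Ang4, Atoh1, Agr2, Spink4, Zg16 and Tff3. Samples were grouped by the labels. Library names give each animal a number, and p-values measure the spread between these libraries. Per-length levels use the exon length in the files. Sequences are RefSeq's. The levels of 1 marker list are not reported here.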

Additional observations from a re-analysis of the deposited data

Results flagged for a closer look

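In 6 of 60 combinations of gene and group (10%), 1 library lay far from the rest of its group, where chance gives about 1 in 20. The value is the gap to the nearest library as a share of the group's range. Both were taken on the log2 scale of the CPM without a prior count, so the shares differ from those in CPM. For the KO libraries of day 0 the share was 0.832 for Fcgbp, 0.863 for Zg16 and 0.897 for Tff3, and each time the low library was d0_KO_32. For Fcgbp in WT on day 3 it was 0.611, with d3_WT_381 at 600.1 CPM. For Atoh1 it was 0.658 in KO on day 3, with the library labelled d3_KO_345 at 19.4 CPM, and 0.82 in KO on day 7, with d7_KO_420 at 3.16 CPM and the next library at 37.97 CPM.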

How the results depend on the processing

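No paired analysis was possible because no animal number occurs in more than 1 group. Over the 110 log2 fold changes of the 10 genes, 2539 of 2630 alternative values kept direction and side of the threshold, counting 117 sign changes of values within 1 SE of 0 that were not called. With the sign kept, 39 lost a call and 30 gained one, and 22 changed sign. Among the 22 were called changes lost with the immune score: Ang4 for day 7 against day 3 in KO and Tff3 for day 7 against day 0 in WT. No called change reversed when 1 library was left out. In every genotype comparison and in the interaction the number of goblet cell genes called was 0 under all alternatives. With the immune score it was 0 for day 7 against day 3 in WT, 0 in KO and 0 for day 7 against day 0 in KO. With all 38 libraries it was 1 for day 7 against day 3 in WT, 4 in KO (Tff3 and Spink4 lost, Spdef gained), 3 for day 7 against day 0 in WT and 2 for day 3 against day 0 in KO, and with the small intestine score 1 for day 7 against day 3 in WT. Leaving out 1 library gave 2 to 4 for day 7 against day 3 in WT, 4 to 6 in KO, 2 to 4 and 4 to 7 for days 3 and 7 against day 0 in WT, and 1 to 2 and 4 to 7 in KO; 3 gene pairs, not 4, passed without the 2 farthest libraries. With the immune score these values changed sign: Zg16 (-0.33) and Atoh1 (0.36) between genotypes on day 3; Zg16 (0.83), Tff3 (0.72), Agr2 (0.91) and Spink4 (1.94) for day 7 against day 3 in WT; Ang4 (0.68) and Atoh1 (1.43) in KO; Tff3 (0.18) for day 7 against day 0 in WT; Zg16 (-0.66) and Agr2 (-0.18) for day 3 against day 0 in KO; Retnlb (-3.72), Atoh1 (1.43) and Spdef (0.41) for day 7 against day 0 in KO. The cause was not tested. Leaving out 1 library changed the sign of values that were not called, over these ranges: Fcgbp -0.32 to 0.30 between genotypes on day 0; Agr2 -0.37 to 0.027 and Ang4 -0.58 to 0.13 between genotypes on day 7; Ang4 -0.58 to 1.35 for day 3 and -1.94 to 0.065 for day 7 against day 0 in WT, and Agr2 -0.25 to 0.22 for the latter; Retnlb -0.75 to 0.90 and Ang4 -1.20 to 1.32 for day 3 against day 0 in KO. Over all genes, edgeR called 5 between genotypes on day 0, 1 on day 3, 1 on day 7 and 2 over both DSS days. The DESeq2 Wald test called 165 on day 0, 99 on day 7 and 547 over both. All 38 libraries in the fit gave 38 on day 7 and 159 over both, no filter 52 on day 0 and 2 on day 7, and a mean CPM of at least 1 gave 0 on days 3 and 7 and over both. With the small intestine score there were 1 on day 0 and 0 on day 3, and with the immune score 1 on day 0. Leaving out 1 library gave 0 to 37 on day 0, 0 to 1 on day 3, 1 to 2 on day 7 and 1 to 555 over both. Day 7 against day 3 had 3002 genes called in WT and 3008 in KO; the immune score left 0 and 4, and the small intestine score 1819 in WT. Against day 0, the immune score left 2824 of 9919 on day 7 in WT and 118 of 8938 in KO, and the small intestine score 4853 of 7409 on day 3 in KO.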
